A study of Mus musculus with 8 samples.

Results

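The 8 genes described here, Cxcr3, Cxcr4, Cxcr6, Ccr2, Ccr8, Cx3cr1, S1pr4 and S1pr5, encode receptors for chemokines and for sphingosine-1-phosphate (S1P), and were taken by symbol from the 27998 genes of the deposited table. Their transcripts were counted as unique molecular identifiers (UMIs) by 5′ single-cell RNA-seq of CD45+ tumor-infiltrating leukocytes (TILs), sorted from B16-OVA melanomas, the mouse B16 line carrying ovalbumin, in immunocompetent C57BL/6 mice that had not been lymphodepleted. The study states that the sorted cells were enriched for CD8+ TILs, so the numbers of cells per class are not the make-up of the tumors. There were 8 libraries, 1 per condition and day, each from the tumors of 5 mice combined where the methods of the study state it (days 5 and 12), so that no comparison between conditions has a replicate. Tumors were either non-treated (day 5) or taken after adoptive cell transfer (ACT) of OT1 cells, CD8+ T cells whose transgenic receptor recognises ovalbumin. The transferred cells were untransduced (days 5 and 12), secreted PD1d with IL-2v (day 12), or secreted PD1d with IL-33 (day 12). In orthogonal ACT, as it is called below, both kinds of secreting cells were given in equal parts (days 5, 12 and 26). No cell of this mixture was made to secrete both cytokines. PD1d is a decoy made of the PD-1 ectodomain fused to Fc, IL-2v is an interleukin-2 variant that does not engage CD25, and IL-33 is an alarmin cytokine. The gene list holds no receptor sequence that separates OT1 cells from the CD8+ T cells of the host, so both are measured together.

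Chemokine receptors are membrane-spanning, G-protein-coupled receptors that direct leukocytes along gradients of small secreted proteins. CXCR3 binds the interferon-induced ligands CXCL9 and CXCL10, CXCR4 binds CXCL12, and CXCR6 binds CXCL16, a ligand with a membrane-bound form on macrophages and dendritic cells. CCR2 draws monocytes and activated lymphocytes towards CCL2 and CCL7, CCR8 is a receptor for CCL1 and, in mice, CCL8 that is known from tumor regulatory T cells, and CX3CR1 binds CX3CL1. S1P is abundant in blood and lymph and scarce within tissues, and its receptors guide lymphocytes out of organs. S1PR5 serves this role in NK cells and is known as a T-bet target, while S1PR4 is a receptor of lymphoid and myeloid cells. In the mouse genome (GRCm38), 5 of the 8 genes lie on chromosome 9, Cx3cr1 at chr9:120048683-120068296 beside Ccr8 at chr9:120092133-120094906, Cxcr6 at chr9:123806477-123811754 near Ccr2 at chr9:124101918-124109140, and S1pr5 at chr9:21242917-21248443. Cxcr3 lies at chrX:101731535-101734147, Cxcr4 at chr1:128588199-128592299 and S1pr4 at chr10:81497745-81500137.

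The 15700 barcodes held 98669511 UMIs, from 1387032 (untransduced ACT, day 12) to 24917112 (orthogonal ACT, day 26) per library, and 12828 passed the cell filter. Libraries held 400 to 3700 barcodes, each a multiple of 100. Gates on raw marker UMIs, in which no receptor takes part, gave 5089 CD8+ T cells, 791 Foxp3-negative and 409 Foxp3-positive CD4+ T cells, 2524 NK cells and 1285 myeloid cells. The day 12 untransduced library and the non-treated library are small, with 41 and 78 CD8+ T cells against 369 to 2300 in the others. By library, the other classes held 10 to 123 Foxp3-positive and 13 to 307 Foxp3-negative CD4+ T cells, 60 to 843 NK cells and 14 to 294 myeloid cells. The day 12 untransduced library held 16, 17, 60 and 14 of these, and the non-treated library 10, 13, 77 and 23. Markers outside the gates were highest in their own class for 6 of 6 NK, 5 of 5 Foxp3-positive and 6 of 6 myeloid markers, but for 3 of 4 Foxp3-negative CD4 and 2 of 4 CD8 markers, 1 of which, Cd8a, is a gate gene. The Foxp3-negative gate can hold regulatory cells in which no Foxp3 UMI was read: its summed level of Il2ra, Ikzf2, Ctla4, Tnfrsf4 and Tnfrsf18 was 685 to 3313 UMIs per 1000000 UMIs of the class (CPM), against 5055 to 7402 in Foxp3-positive cells. Doublets were not called. The gates instead capped B-cell markers in all classes, myeloid markers in T and NK cells, CD3 in NK and myeloid cells, and NK markers in myeloid cells. NK markers were not capped in the T-cell gates, nor Cd8a, Cd8b1 and Cd4 in the NK gate, so doublets of T and NK cells were not screened out. Of the barcode sequences of passing cells, 95 (0.746%) occurred in more than 1 library. Between 17.3% and 31.9% of CD8+ T cells, thinned to 2000 UMIs, held none of the 8 receptors, and 27.8% to 46.1% held 2 or more.

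All 8 receptors were read in these tumors, with 717 (S1pr5) to 23407 (Ccr2) UMIs in passing cells, and they differed in the class where they were highest (plot of receptor levels by class). Cxcr6 and Cxcr3 were mainly T-cell transcripts here, Ccr8 led in Foxp3-positive CD4+ T cells, S1pr5 in NK cells, and Cx3cr1 in myeloid cells. The label of effector lymphocytes therefore does not cover the levels of all 8, since Cx3cr1, Ccr2 and Cxcr4 were also myeloid genes. Classes were compared with edgeR's quasi-likelihood test on UMIs summed per class and library (40 sums, 8 libraries, library as a term, 8058 genes tested), with p-values adjusted by Benjamini-Hochberg over all genes tested. The SE printed with an edgeR difference was derived from the test, as the absolute difference divided by the square root of its F statistic. It is not a separate estimate of spread. A sum of a class cannot tell fewer expressing cells from less RNA per cell.

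**Figure D1:**
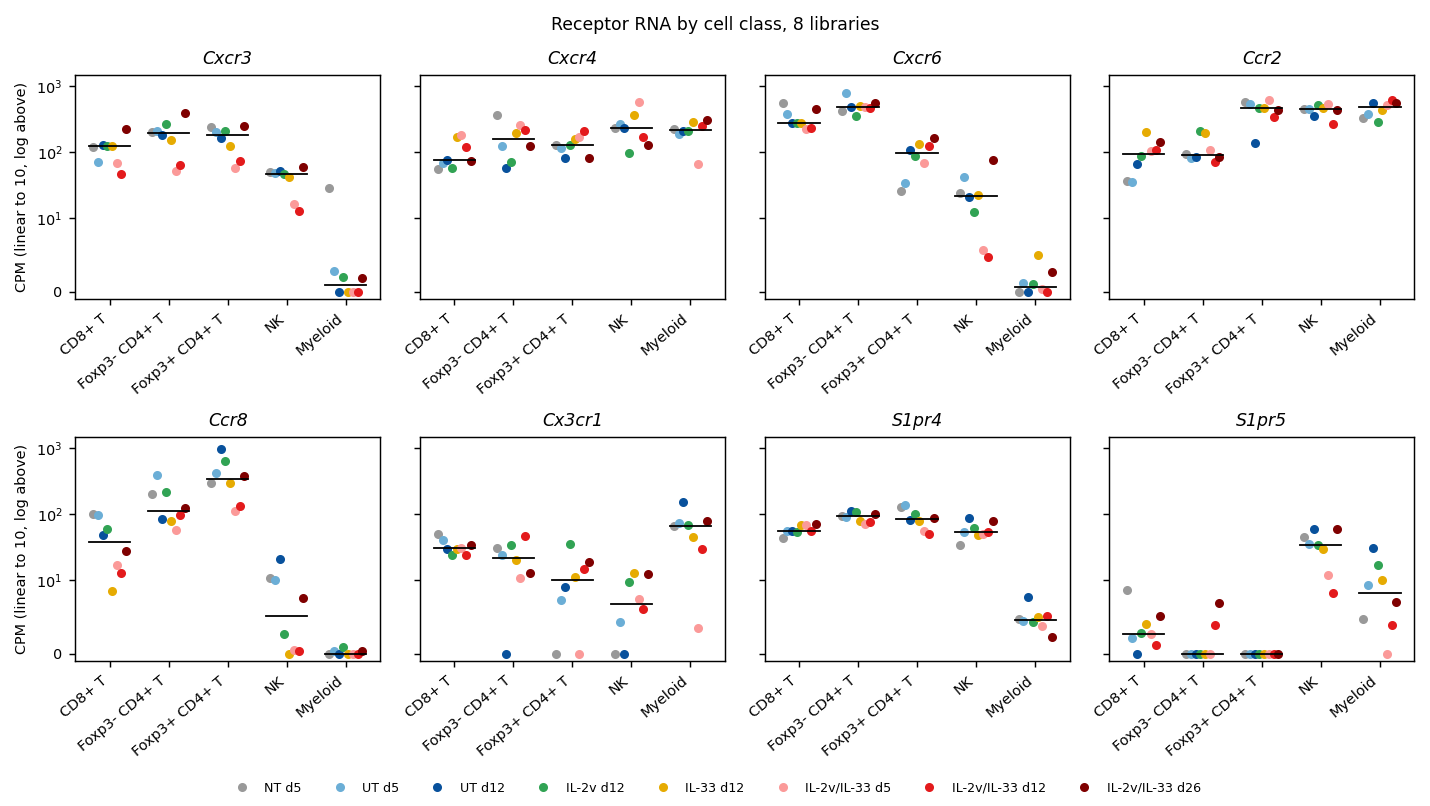
Level of each receptor (CPM, on an axis linear up to 10 and logarithmic above) in the 5 gated cell classes, with 1 point for each of the 8 libraries (NT, non-treated, UT, untransduced, IL-2v/IL-33, orthogonal ACT) and a bar at the median. S1pr5 has its highest median, 34.9 CPM, in NK cells, Ccr8 its highest, 346 CPM, in Foxp3-positive CD4+ T cells, and Cxcr6 its lowest, 0.675 CPM, in myeloid cells.

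NK cells differed from CD8+ T cells in 7 of the 8 receptors, where 35.6% of all genes tested were called. They had less Cxcr3, Cxcr6, Ccr8 and Cx3cr1 and more Cxcr4, Ccr2 and S1pr5, and in each of these the direction held in 8 of 8 libraries (exact sign-flip test over libraries, two-sided, p = 0.0078125, the smallest that 8 libraries allow, and 0.0147 adjusted over 32 tests). Cxcr6 showed the widest gap, with 223 to 551 CPM (median 275) in CD8+ T cells and 4.67 to 75.9 CPM (median 21.7) in NK cells. The log2 difference of NK minus CD8+ T cells in edgeR's quasi-likelihood fit was -4.11 ± 0.28 (SE), adjusted p = 2.00e-15 for Cxcr6, and the ranges did not overlap. S1pr5 was the reverse, at 8.25 to 60.8 CPM (median 34.9) in NK cells and 0 to 8.71 CPM (median 2.77) in CD8+ T cells, a difference of 3.13 ± 0.34 (SE), adjusted p = 3.93e-09 by edgeR. Ccr2 was higher by 2.09 ± 0.23 (SE), adjusted p = 1.98e-09, and its lowest NK library (269.9 CPM) lay above its highest CD8+ library (202 CPM). S1pr4 did not pass the test, with medians of 55.8 CPM in CD8+ T cells and 53.7 in NK cells (-0.16 ± 0.13 (SE), adjusted p = 0.343 by edgeR). The median difference of the 8 receptors was -0.88 on the log2 scale, against -0.01 over all genes tested.

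For the other 4 in the same edgeR contrast, Cxcr3 was lower in NK cells with a log2 difference of -1.60 ± 0.19 (SE), adjusted p = 5.22e-09, Ccr8 at -3.54 ± 0.34 (SE), adjusted p = 5.51e-11 and Cx3cr1 at -2.13 ± 0.39 (SE), adjusted p = 2.53e-05. Cxcr4 was higher in NK cells by 1.24 ± 0.27 (SE), adjusted p = 2.62e-04, with 97.1 to 569 CPM (median 235) there and 56.6 to 185 CPM (median 75.3) in CD8+ T cells, ranges that overlap. The NK marker sum was 353.9 to 680.2 CPM in CD8+ T cells and 1960 to 3889 CPM in NK cells, and its part in the low S1pr5 counts of CD8+ T cells was not tested.

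Foxp3-positive cells had more Ccr2 and Ccr8 and less Cxcr6 than Foxp3-negative CD4+ T cells, 3 of 8 receptors called where 17.8% of all genes were. Ccr8 in Foxp3-positive cells was 296 CPM in non-treated tumors, 417 and 986 after untransduced ACT at days 5 and 12, 649.8 after PD1d/IL-2v ACT, 304 after PD1d/IL-33 ACT, and 114, 135 and 388 after orthogonal ACT at days 5, 12 and 26. It was the highest of the 5 classes in 8 of 8 libraries, and within this class the day 5 and day 12 libraries of orthogonal ACT were the lowest. The levels of 296, 986 and 304 CPM come from only 10, 16 and 15 cells, and those of 114 and 135 CPM from 38 and 26. Ccr8 exceeded Foxp3-negative cells by a log2 difference of 1.21 ± 0.24 (SE), adjusted p = 2.42e-04 in edgeR's quasi-likelihood fit, Ccr2 by 2.02 ± 0.27 (SE), adjusted p = 3.99e-07, and Cxcr6 was lower, at -2.53 ± 0.28 (SE), adjusted p = 8.86e-09. Cxcr6 ran at 25.7 to 161 CPM (median 98.6) in Foxp3-positive cells, below every CD8+ T-cell library. S1pr5 was at 0 UMIs in 409 Foxp3-positive cells, which allows a level of up to 0.972 CPM over the class, so no fold is given. The median over the 8 receptors was -0.23, against -0.01 over all genes.

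Foxp3-negative CD4+ T cells differed from CD8+ T cells in 2 of 8 receptors, against 21.6% of all genes tested. Ccr8 was higher, at 58.4 to 389.5 CPM (median 111) against 8.59 to 100.2 CPM (median 38.0) (edgeR log2 difference 1.87 ± 0.24 (SE), adjusted p = 1.17e-07). S1pr4 was higher by 0.38 ± 0.14 (SE), adjusted p = 0.0499 in edgeR, a call that held in 2 of the 8 fits that each left out 1 library (without PD1d/IL-33 ACT or orthogonal ACT at day 5) and was lost without any 1 of the other 6 libraries (adjusted p 0.0398 to 0.15 over the 8). Cxcr3 had an edgeR difference of 0.49 ± 0.18 (SE), adjusted p = 0.051, and Cxcr6 of 0.54 ± 0.23 (SE), adjusted p = 0.0855. Ccr2 showed a difference of 0.01 ± 0.26 (SE). The medians over members and over all genes were 0.44 and -0.02.

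Myeloid cells differed from CD8+ T cells in 8 of 8 receptors, in a contrast in which 72.7% of all genes were called. Ccr2, at 291 to 611 CPM (median 482), and Cxcr4, at 67.4 to 312 CPM (median 217), were higher than in CD8+ T cells by log2 differences of 2.38 ± 0.24 (SE), adjusted p = 1.53e-11 and 1.42 ± 0.27 (SE), adjusted p = 1.78e-05 in edgeR's quasi-likelihood fit. Cx3cr1 was 66.1 CPM (non-treated), 73.4 and 155 (untransduced, days 5 and 12), 69.0 (PD1d/IL-2v), 45.1 (PD1d/IL-33) and 3.49, 29.7 and 80.2 (orthogonal, days 5, 12 and 26). These levels were the highest of the 5 classes in 6 of 8 libraries, and the day 5 library of orthogonal ACT was far below the rest. Its dendritic-cell genes were also the lowest, and its granulocyte genes the second highest, of the 8 myeloid libraries, and their part was not tested. The edgeR difference for Cx3cr1, 0.84 ± 0.32 (SE), adjusted p = 0.0172, held in 5 of 8 fits without 1 library, and lost its call without PD1d/IL-2v ACT (log2 0.60, adjusted p = 0.121), orthogonal ACT at day 26 (0.68, 0.0935) or untransduced ACT at day 5 (0.76, 0.0548). S1pr5 was higher by 1.46 ± 0.40 (SE), adjusted p = 0.00153 in edgeR, and without PD1d/IL-2v ACT the difference was 0.85 with an adjusted p of 0.104. Cxcr3, Cxcr6, Ccr8 and S1pr4 were lower, with Cxcr6 and Ccr8 at most 5.01 and 1.001 CPM in any myeloid library. By the exact two-sided sign-flip test over libraries, S1pr5 was higher in 6 of 8 (p = 0.109), Cx3cr1 in 7 of 8 (p = 0.188) and Cxcr4 in 7 of 8 (p = 0.0391, 0.0595 adjusted over 32 tests), while the direction of the other 5 held in 8 of 8 (p = 0.0078125). Over members the median difference was -1.47, and over all genes -0.11.

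RNA released from myeloid cells adds UMIs to other droplets. From 6 myeloid genes outside the gates, the level carried into lymphoid classes was 0% to 1.83% of the myeloid level. For Ccr2 in CD8+ T cells this comes to 0.609 to 3.93 CPM against a measured 35.3 to 202 CPM, at most 4.04% of it, and for Cx3cr1 to at most 2.53%. The share was larger where the measured level was low, at up to 15.9% of Ccr2 and 9.60% of Cx3cr1 in Foxp3-negative CD4+ T cells, and up to 5.47% of Cx3cr1 in Foxp3-positive and 8.08% in NK cells. Ccr2 came to at most 0.954% in Foxp3-positive and 1.75% in NK cells.

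The promoters of Cxcr3 and S1pr5 are shown. Both genes were lower in the NK cells of orthogonal ACT at days 5 and 12 than in those of every other library. Cxcr6 was too, at 5.69 and 4.67 CPM against 12.5 CPM or more in the other libraries, and its promoter is not shown. Each sequence is RefSeq's (GRCm38.p6), the minus strand read 5′ to 3′ from 250 bases before to 50 bases after the start of the gene, at chrX:101734098-101734397 and chr9:21248394-21248693. All 8 genes matched an entry. Capitals mark matches on either strand to TCACAC (reverse GTGTGA), the core of T-box sites, or to CACCC (reverse GGGTG), the core of sites of KLF factors.
Cxcr3 promoter: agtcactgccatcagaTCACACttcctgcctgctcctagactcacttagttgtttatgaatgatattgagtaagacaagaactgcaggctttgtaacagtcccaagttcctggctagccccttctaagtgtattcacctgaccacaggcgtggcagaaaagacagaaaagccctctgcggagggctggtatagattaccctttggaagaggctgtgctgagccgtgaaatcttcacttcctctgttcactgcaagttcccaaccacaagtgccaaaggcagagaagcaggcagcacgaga
S1pr5 promoter: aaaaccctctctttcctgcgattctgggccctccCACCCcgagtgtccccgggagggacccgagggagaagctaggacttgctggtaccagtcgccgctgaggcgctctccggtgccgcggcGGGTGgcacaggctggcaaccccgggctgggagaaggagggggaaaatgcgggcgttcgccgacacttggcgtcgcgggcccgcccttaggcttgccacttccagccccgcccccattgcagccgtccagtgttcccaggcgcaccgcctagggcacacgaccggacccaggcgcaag
The Cxcr3 window holds 1 match to the T-box letters and none to the KLF letters, and the S1pr5 window holds 2 to the KLF letters and none to the T-box letters. The Cxcr6 window holds no match to either. TCACAC or its reverse stands in 4760 of 32851 promoter windows of this length (14.5%) and in 1 of the 8 windows of these receptors. CACCC or its reverse stands in 18895 windows (57.5%) and in 5 of the 8, those of Ccr8, Cx3cr1, Cxcr4, S1pr4 and S1pr5. A match is a description of letters and not a bound site.

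In CD8+ T cells, Ccr8, Ccr2, Cxcr3 and Cxcr4 varied most between libraries, by 11.7, 5.71, 4.72 and 3.27 times from the lowest to the highest, and S1pr4 least, by 1.63 times. Ratios between 2 libraries are given as log2 after adding 10 CPM, with 95% intervals for counting error only, and a difference counts as past 2-fold where this log2 is at least 1 either way and both libraries together hold 50 UMIs or more. Each comparison is between single libraries, so it has no p-value. The entries of the deposited aggregation table carry a code for each library, whose meaning is not stated. Orthogonal and untransduced ACT at day 12 share 1 such code, and the libraries of PD1d with a single cytokine share another. Non-treated tumors and orthogonal ACT at day 26 also share a code, although no ratio between them is given. Where libraries are ranked, whatever goes with that code cannot be told apart from condition and day. In every other comparison the codes differ, and whatever goes with the code cannot be told apart from condition and day. The day 12 library of orthogonal ACT enters several comparisons, whose values are not independent.

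**Figure D2:**
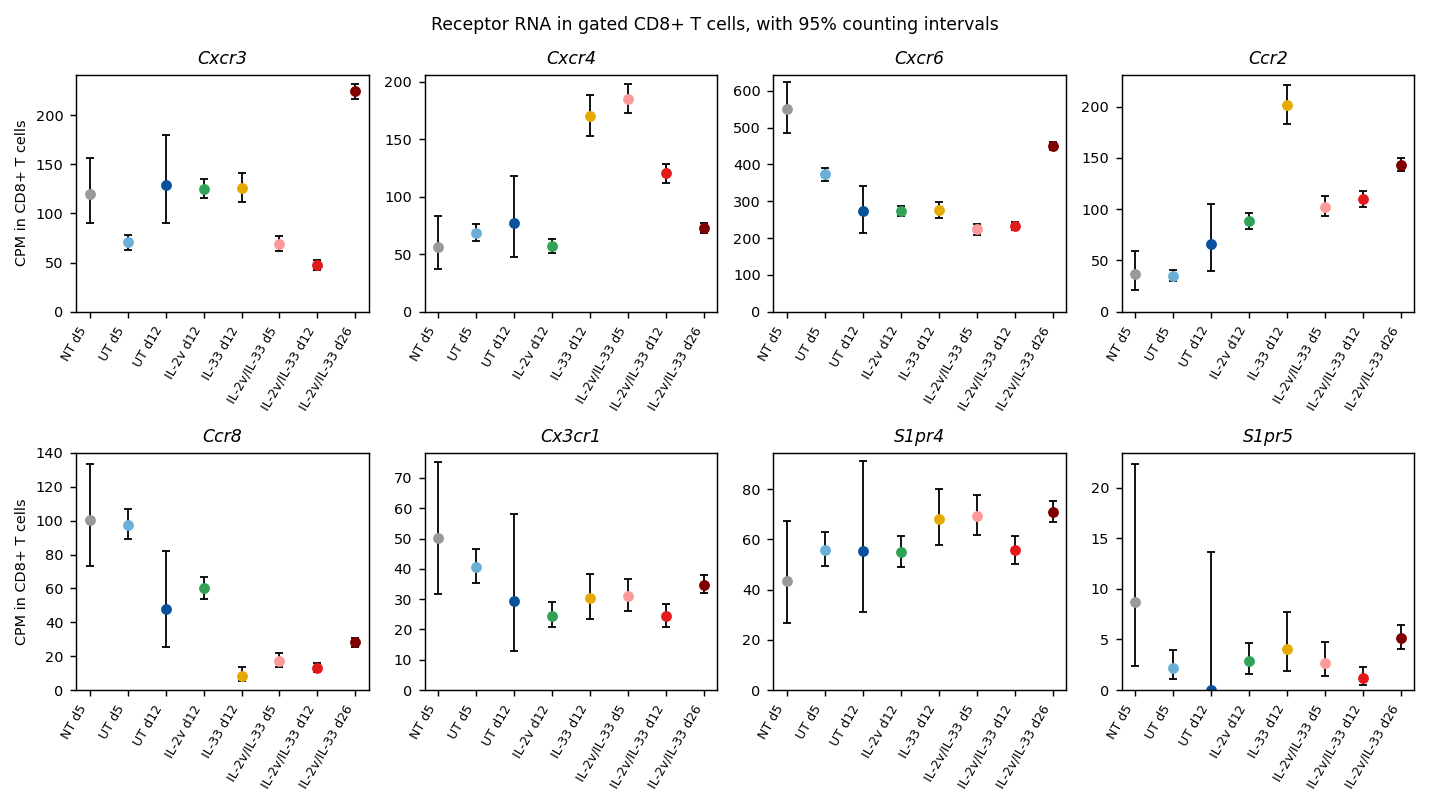
Level of each receptor in gated CD8+ T cells (CPM, each panel with its own axis from 0) in the 8 libraries, with 95% Poisson intervals for counting error. Ccr8 is 100.2 CPM in non-treated tumors and 8.59 CPM after PD1d/IL-33 ACT, and Cxcr3 is lowest, 47.5 CPM, at day 12 and highest, 224 CPM, at day 26 of orthogonal ACT.

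Cxcr3, the receptor that links T cells to interferon-induced chemokines, was 119.8 CPM in non-treated tumors, 70.5 and 129 after untransduced ACT at days 5 and 12, 125 after PD1d/IL-2v ACT, 126 after PD1d/IL-33 ACT, and 69.4, 47.5 and 224 after orthogonal ACT at days 5, 12 and 26 in CD8+ T cells. The day 26 library stood above all others and the day 12 library of the same treatment below all others, while the 3 other libraries of day 12 lay between 125 and 129 CPM. In thinned CD8+ T cells of all libraries together, 26.8% held a Cxcr3 UMI, against 0.467% of thinned myeloid cells, and without thinning 30.9% to 64.8% did by library. In such pooled shares 2300 of the 5089 CD8+ T cells came from orthogonal ACT at day 26, the library highest in Cxcr3. There 39.4% of thinned cells with and 34.8% of those without a Cxcr6 UMI held Cxcr3, against 14.2% and 11.9% at day 12 of this treatment. Median depths before thinning were 5210 to 8328 UMIs per CD8+ T cell and 5272 to 11418 per myeloid cell by library. At day 12, orthogonal ACT had less Cxcr3 than untransduced ACT, at -1.27 (95% counting interval -1.74 to -0.78), than PD1d/IL-2v ACT, at -1.23 (95% counting interval -1.40 to -1.07), and than PD1d/IL-33 ACT, at -1.24 (95% counting interval -1.44 to -1.03). Against the larger untransduced library of day 5 the ratio was -0.48, under 2-fold. From day 12 to day 26 of orthogonal ACT the level was higher by 2.03 (95% counting interval 1.89 to 2.16). The ratio to PD1d/IL-33 ACT came to -0.96 with the cell filter of the later experiment of the study and -0.99 after thinning, both short of 2-fold.

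Cxcr4, the CXCL12 receptor, was 56.6 CPM (non-treated), 68.9 and 77.4 (untransduced, days 5 and 12), 57.0 (PD1d/IL-2v), 170.0 (PD1d/IL-33) and 185, 120.4 and 73.1 (orthogonal, days 5, 12 and 26) in CD8+ T cells. The 3 highest libraries were orthogonal ACT at day 5, PD1d/IL-33 ACT and orthogonal ACT at day 12, those that received IL-33 and were taken by day 12. Orthogonal exceeded untransduced ACT at day 5 by 1.31 (95% counting interval 1.14 to 1.47), and PD1d/IL-33 exceeded PD1d/IL-2v ACT by 1.43 (95% counting interval 1.23 to 1.62). Without cycling cells the first of these ratios was 0.99. Between orthogonal and PD1d/IL-2v ACT at day 12 the ratio was 0.96 (95% counting interval 0.80 to 1.12), just under 2-fold, and at day 26 the level was among the lower ones.

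Cxcr6, a receptor of tissue-resident T cells, was 551 CPM in non-treated tumors, 373 and 273 after untransduced ACT at days 5 and 12, 272 after PD1d/IL-2v ACT, 276 after PD1d/IL-33 ACT, and 223, 232 and 451 after orthogonal ACT at days 5, 12 and 26 in CD8+ T cells. No comparison passed 2-fold. The nearest were orthogonal ACT at day 26 over day 12, 0.93 (95% counting interval 0.85 to 1.002), and orthogonal against untransduced ACT at day 5, -0.71 (95% counting interval -0.82 to -0.61). The 3 libraries of day 12 other than orthogonal ACT lay between 272 and 276 CPM, within counting error of each other. Of all thinned CD8+ T cells, 41.9% held a Cxcr6 UMI, against 0.311% of myeloid cells, and 58.5% to 72.6% by library did without thinning. Thinned cells with and without it numbered 1136 and 1164 at day 26 of orthogonal ACT, and 247 and 481 at day 12.

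Ccr2 and Ccr8 went in opposite directions in the 2 comparisons in which both were past 2-fold, orthogonal against untransduced ACT at day 5 and PD1d/IL-33 over PD1d/IL-2v ACT. Ccr2, the CCL2 receptor, was 37.0 CPM (non-treated), 35.3 and 66.4 (untransduced, days 5 and 12), 88.3 (PD1d/IL-2v), 202 (PD1d/IL-33) and 103, 109.9 and 143 (orthogonal, days 5, 12 and 26) in CD8+ T cells. Non-treated and day 5 untransduced tumors had the lowest levels, and the PD1d/IL-33 library the highest. The ratio of PD1d/IL-33 over PD1d/IL-2v ACT was 1.11 (95% counting interval 0.93 to 1.28), and 0.97 and 0.84 with the cell filter of the later experiment and after thinning. At day 5 the ratio of orthogonal to untransduced ACT was 1.31 (95% counting interval 1.10 to 1.52). At day 12 orthogonal ACT had less Ccr2 than PD1d/IL-33 ACT, -0.82 (95% counting interval -0.98 to -0.66), under 2-fold.

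Ccr8, the CCL1 receptor, was 100.2 CPM in non-treated tumors, 97.6 and 47.9 after untransduced ACT at days 5 and 12, 60.2 after PD1d/IL-2v ACT, 8.59 after PD1d/IL-33 ACT, and 17.4, 13.2 and 28.1 after orthogonal ACT at days 5, 12 and 26 in CD8+ T cells. The 4 libraries that received IL-33 were the 4 lowest, and none of them reached the level of any of the other 4, although the 95% interval of the small day 12 untransduced library went down to 25.5 CPM. PD1d/IL-33 ACT had less than PD1d/IL-2v ACT, at -1.92 (95% counting interval -2.24 to -1.56), orthogonal ACT at day 12 less than PD1d/IL-2v ACT, at -1.60 (95% counting interval -1.81 to -1.38), and orthogonal less than untransduced ACT at day 5, at -1.97 (95% counting interval -2.21 to -1.73). The ratio of orthogonal to untransduced ACT at day 12 was -1.32 (95% counting interval -2.01 to -0.59), a call that was not made with the cell filter of the later experiment (-0.80) and that had under 50 UMIs after thinning. Ccr8 UMIs were in 4.40% of thinned CD8+ T cells and 0.0778% of thinned myeloid cells, and in 2.71% to 32.1% of CD8+ T cells by library without thinning. CD8+ T cells of the PD1d/IL-2v library also held 410 CPM of the granulocyte genes S100a8 and S100a9, against 0 to 41.9 CPM in the others, and without the 2 cells in which these were high the Ccr8 ratio of PD1d/IL-33 over PD1d/IL-2v ACT was -1.91.

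No comparison of Cx3cr1 or S1pr4 in CD8+ T cells passed 2-fold, and S1pr5 was too rare for most comparisons. Cx3cr1 ran from 24.5 to 50.1 CPM (median 30.6) and S1pr4 from 43.6 to 70.9 CPM (median 55.8) in CD8+ T cells, and in neither did any 2 neighbours in the order of libraries differ beyond their counting intervals. Between days 26 and 12 of orthogonal ACT the ratio was 0.38 (95% counting interval 0.19 to 0.56) for Cx3cr1 and 0.30 (95% counting interval 0.16 to 0.45) for S1pr4. The median ratio over all genes with enough UMIs in this comparison was 0.119. S1pr5 was at 0 UMIs after untransduced ACT at day 12, which allows up to 11.1 CPM, and at 1.16 to 8.71 CPM elsewhere, with 4 to 78 UMIs per library. Only the comparison of days 26 and 12 of orthogonal ACT reached 50 UMIs, at 0.44 (95% counting interval 0.27 to 0.59). In the order of CD8+ libraries, the neighbouring pairs that were separate beyond counting error numbered 4 of 7 for Cxcr6, 3 of 7 each for Cxcr3, Cxcr4 and Ccr2, 2 of 7 for Ccr8, and 0 for the rest.

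**Figure D3:**
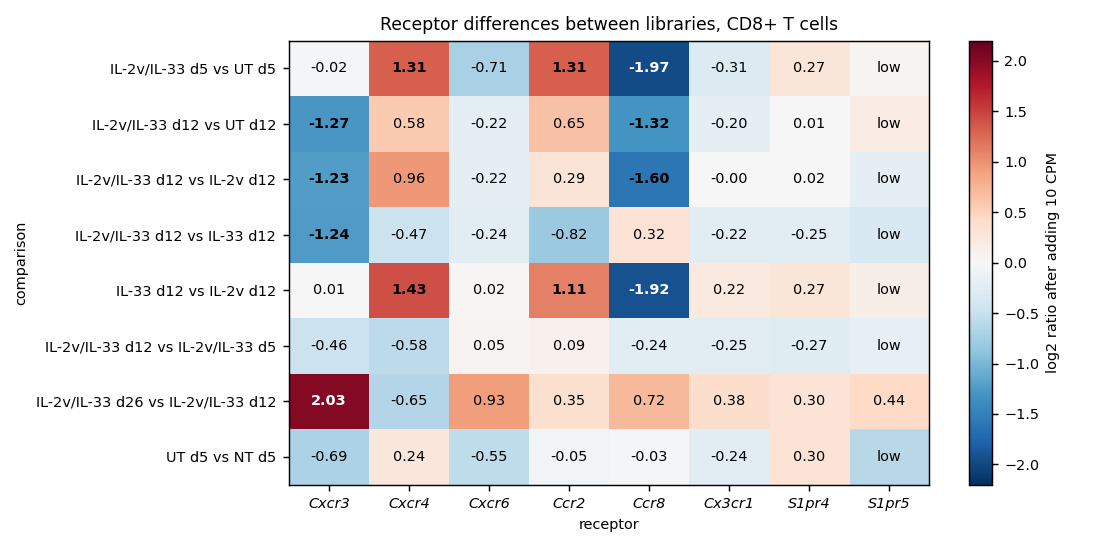
Heat map of the log2 ratio (after adding 10 CPM) of each receptor (columns) in CD8+ T cells for 8 comparisons between libraries (rows), with values past 2-fold in bold and low where both libraries together hold under 50 UMIs. Ccr8 is past 2-fold on the lower side in 4 comparisons, and Cxcr3 past it on the lower side in 3 and on the higher side in 1.

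Counted over the 7 receptors with enough UMIs, 3 were past 2-fold in CD8+ T cells between orthogonal and untransduced ACT at day 5, where 3.08% of all genes with enough UMIs were. At day 12, 2 were past it between orthogonal and untransduced ACT (7.95% of all genes), 2 between orthogonal and PD1d/IL-2v ACT (2.08%), 1 between orthogonal and PD1d/IL-33 ACT (1.69%), and 3 between PD1d/IL-33 and PD1d/IL-2v ACT (3.1%). None was between day 12 and day 5 of orthogonal ACT (0.653%) or between untransduced and non-treated tumors at day 5 (1.93%). Of all 8 receptors, 1 was between days 26 and 12 of orthogonal ACT (3.1%).

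The low Cxcr3 of orthogonal ACT at days 5 and 12 was read in other lymphocytes as well. In Foxp3-negative CD4+ T cells the level was 204 CPM (non-treated), 208 and 185 (untransduced, days 5 and 12), 264 (PD1d/IL-2v), 151 (PD1d/IL-33) and 52.4, 64.3 and 396 (orthogonal, days 5, 12 and 26), and in Foxp3-positive cells it was 244 CPM (non-treated), 205 and 163 (untransduced, days 5 and 12), 208 (PD1d/IL-2v), 124 (PD1d/IL-33) and 56.9, 74.8 and 249 (orthogonal, days 5, 12 and 26). In NK cells it was 50.9 CPM (non-treated), 48.3 and 52.5 (untransduced, days 5 and 12), 46.6 (PD1d/IL-2v), 42.8 (PD1d/IL-33) and 16.5, 12.9 and 60.8 (orthogonal, days 5, 12 and 26). In each of these 3 classes the day 5 and day 12 libraries of orthogonal ACT were the 2 lowest of 8, and in CD8+ T cells they were too, day 5 by a margin within counting error (69.4 against 70.5 CPM after untransduced ACT). In Foxp3-positive cells 0 of 7 neighbouring pairs in the order of libraries were separate beyond counting error. Day 12 of orthogonal ACT was thus not separate there from PD1d/IL-33 ACT (26 and 15 cells). Between orthogonal and PD1d/IL-2v ACT at day 12, Cxcr3 was lower past 2-fold in 4 of 4 lymphoid classes (log2 -1.88 to -1.23), and between days 26 and 12 of orthogonal ACT it was higher past 2-fold in 4 of 4 (1.61 to 2.45). All genes past 2-fold came to 10.3% in Foxp3-negative CD4+ T cells, 9.43% in Foxp3-positive cells and 3.29% in NK cells for the first of these comparisons, and to 7.74%, 8.8% and 10.0% for the second. At day 5 against untransduced ACT it was lower past 2-fold in the 2 CD4+ classes and NK cells, at -1.81, -1.68 and -1.14, but the ratio in CD8+ T cells was -0.02 (95% counting interval -0.22 to 0.18). Of the 1945 genes with enough UMIs in all 4 classes and both comparisons, 2 (0.103%), Cxcr3 and Zfp36, were lower past 2-fold in all 4 at day 12 against PD1d/IL-2v ACT and higher in all 4 at day 26 against day 12. This count was made after the Cxcr3 values had been seen, and both comparisons share the day 12 library of orthogonal ACT.

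**Figure D4:**
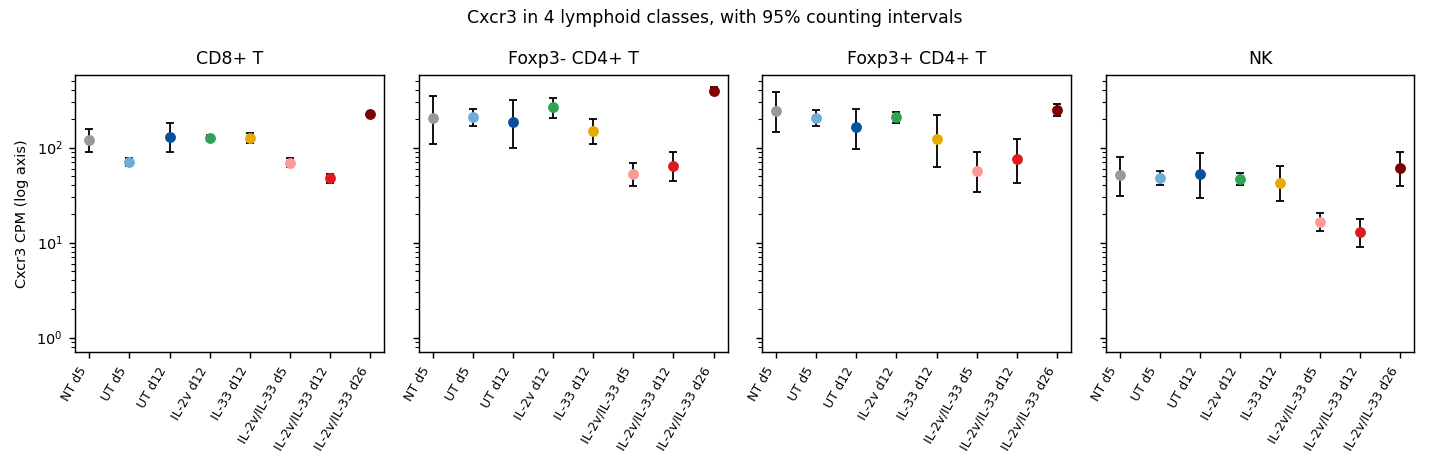
Cxcr3 (CPM, logarithmic axis) in the 4 gated lymphoid classes of the 8 libraries, with 95% Poisson intervals. In NK cells orthogonal ACT gave 16.5 CPM on day 5, 12.9 on day 12 and 60.8 on day 26.

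S1pr5, the NK-cell S1P receptor, was 45.6 CPM (non-treated), 35.03 and 59.5 (untransduced, days 5 and 12), 34.8 (PD1d/IL-2v), 29.8 (PD1d/IL-33) and 12.2, 8.25 and 60.8 (orthogonal, days 5, 12 and 26) in NK cells. The day 5 and day 12 libraries of orthogonal ACT were the lowest, and the day 26 library the highest, although its 95% counting interval overlapped those of the other 5. The ratio to untransduced ACT at day 5 was -1.02 (95% counting interval -1.32 to -0.71) and to PD1d/IL-2v ACT at day 12 -1.30 (95% counting interval -1.62 to -0.94). The T-box factor gene Tbx21, which encodes T-bet, was 249 CPM (non-treated), 245 and 136 (untransduced, days 5 and 12), 153 (PD1d/IL-2v), 149 (PD1d/IL-33) and 131, 93.3 and 266 (orthogonal, days 5, 12 and 26) in the same NK cells. Its levels were lowest in the same 2 libraries and highest at day 26, although the interval of day 5 overlapped those of the 3 other treatments at day 12, and that of day 26 overlapped those of non-treated tumors and of untransduced ACT at day 5. At day 12 untransduced ACT had Tbx21 near that of orthogonal ACT at day 5 (136 and 131 CPM). Its S1pr5 was higher, at 59.5 against 12.2 CPM. The part of Tbx21 in the receptor levels was not tested. In the same 2 low libraries the NK marker sum was 2759 CPM at day 5 and 1960 CPM at day 12, against 3174 to 3889 CPM in the other 6, and the granulocyte genes summed to 122.8 and 73.9 CPM, against 0 to 35.8 CPM. Their part in the S1pr5 and Cxcr3 levels of NK cells was not tested.

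Cxcr4 in NK cells was 236 CPM (non-treated), 264 and 234 (untransduced, days 5 and 12), 97.1 (PD1d/IL-2v), 363 (PD1d/IL-33) and 569, 170.1 and 129 (orthogonal, days 5, 12 and 26). Orthogonal ACT at day 5 was the highest library and PD1d/IL-2v ACT the lowest, and from day 5 to day 12 of orthogonal ACT the level was lower, at -1.68 (95% counting interval -1.82 to -1.55). PD1d/IL-33 ACT exceeded PD1d/IL-2v ACT by 1.80 (95% counting interval 1.56 to 2.04), and orthogonal exceeded untransduced ACT at day 5 by 1.08 (95% counting interval 0.97 to 1.19). Cxcr6, low in all NK libraries, was lower after orthogonal than untransduced ACT at day 5, -1.72 (95% counting interval -2.01 to -1.42). In this comparison 4 of the 7 receptors with enough UMIs were past 2-fold, against 4.51% of all genes.

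Ccr8 was lower after orthogonal than after untransduced ACT at day 5 in 4 of 4 lymphoid classes by its counting interval, with -2.55 in Foxp3-negative and -1.79 in Foxp3-positive CD4+ T cells, classes in which 13.8% and 10.7% of all genes were past 2-fold. In NK cells Ccr8 was only 0.589 CPM after orthogonal and 10.0 CPM after untransduced ACT, with under 50 UMIs in both libraries together. In Foxp3-negative cells it was 204 CPM (non-treated), 389.5 and 85.6 (untransduced, days 5 and 12), 215 (PD1d/IL-2v), 80.3 (PD1d/IL-33) and 58.4, 97.4 and 125 (orthogonal, days 5, 12 and 26). Orthogonal ACT at day 5 was the lowest library, within counting error of PD1d/IL-33 ACT, and untransduced ACT at day 5 the highest. Against PD1d/IL-2v ACT at day 12, orthogonal ACT was at -2.19 (95% counting interval -2.75 to -1.67) in Foxp3-positive cells (26 and 123 cells), and day 26 exceeded day 12 by 1.46 (95% counting interval 0.92 to 2.03). The share of all genes past 2-fold in Foxp3-positive cells was 9.43% against PD1d/IL-2v ACT and 8.8% between days 26 and 12.

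In myeloid cells, where CX3CR1 and CCR2 are known from monocytes and macrophages, Cx3cr1 was lower after orthogonal than untransduced ACT at day 5, at -2.63 (95% counting interval -2.91 to -2.29) and Cxcr4 at -1.38 (95% counting interval -1.60 to -1.16) (7.97% of all genes past 2-fold). Cxcr4 was 222 CPM (non-treated), 192 and 209 (untransduced, days 5 and 12), 211 (PD1d/IL-2v), 291 (PD1d/IL-33) and 67.4, 249 and 312 (orthogonal, days 5, 12 and 26) in this class. The day 5 library of orthogonal ACT, which had the highest Cxcr4 in CD8+ T and NK cells, had the lowest in myeloid cells. The make-up of the class differed between these 2 libraries. The 6 myeloid markers outside the gates summed to 2445 CPM after orthogonal and 4694 CPM after untransduced ACT at day 5 (2030 to 4694 over the 8 libraries), the granulocyte genes to 720.7 and 30.2 CPM (4.72 to 963.2) and the dendritic-cell genes to 3.49 and 139.9 CPM (3.49 to 139.9). Their part in the low Cx3cr1 and Cxcr4 was not tested. From day 5 to day 12 of orthogonal ACT, Cxcr4 was higher in myeloid cells by 1.75 (95% counting interval 1.48 to 2.01).

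CD8+ T cells with a Cxcr6 UMI were compared with those without one, for the other receptors and for genes of egress and retention. Cells were thinned to 2000 UMIs and split within each of 7 libraries, leaving out untransduced ACT at day 12 with 15 Cxcr6-positive cells. Klf2, a factor that drives S1pr1, was lower in cells with Cxcr6 in 7 of 7 libraries (median log2 ratio -0.69, 4 counting intervals below 0), and S1pr1, the main egress receptor of T cells, in 7 of 7 (median -0.72, 2 below 0). Cd69, which retains T cells by removing S1PR1 from the surface, was lower in 5 of 7 (median -0.23, 2 below 0), and the ratio for the integrin gene Itgae, a marker of tissue residence, was above 0 in 3 of 7 (median -0.38, 1 interval below 0). Itgae was too rare for these directions to be read. Cells with and without Cxcr6 held 1 and 1 Itgae UMIs after PD1d/IL-33 ACT and 1 and 0 at day 12 of orthogonal ACT, both above 0. The interval below 0 was from non-treated tumors, with 0 and 7 UMIs. Of the other receptors, Ccr8 and Cx3cr1 were higher in 6 of 7 libraries each (medians 0.56 and 0.40, 3 intervals above 0 each), and Cxcr4 was lower in 6 of 7 (median -0.53, 3 below 0). Cxcr3 was higher in 5 of 7 with 1 interval above 0, Ccr2 in 7 of 7 with none, and S1pr4 in 3 of 7 with none, while S1pr5 was lower in 6 of 7 with 1 interval below 0. That interval was from day 26 of orthogonal ACT, with 10 and 27 S1pr5 UMIs in cells with and without Cxcr6. Every other library held at most 5 S1pr5 UMIs in either part. Over the 8731 genes with at least 50 thinned UMIs in these cells, Cxcr6 left out, 1.33% were lower in all 7 libraries, 2.82% had at least 2 intervals below 0, and 1.64% were higher in at least 6 libraries with at least 3 intervals above 0. A cell without a UMI may still carry the transcript.

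**Figure D5:**
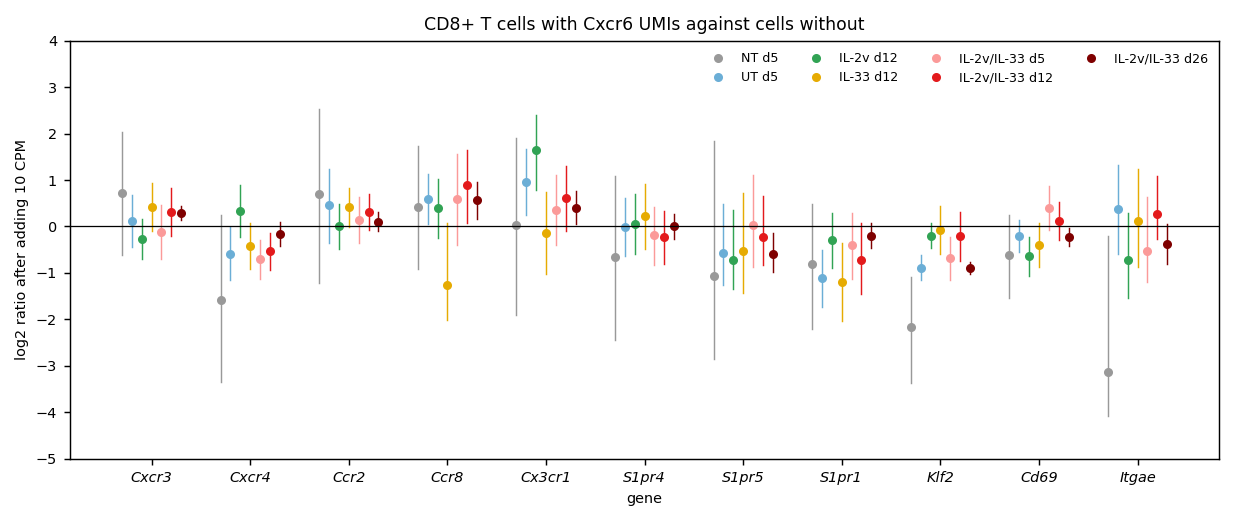
Log2 ratio (after adding 10 CPM) of each gene between CD8+ T cells with and without a Cxcr6 UMI, with 1 point for each of 7 libraries and lines for 95% counting intervals. Klf2 lies below 0 in 7 of 7 libraries with a median of -0.69, and Cx3cr1 above 0 in 6 of 7 with a median of 0.40.

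Of 19 further chemokine and S1P receptors, 7 were tested between classes. In NK cells 4 were lower than in CD8+ T cells, Ccr3, Ccr4, Ccr7 and S1pr1. In Foxp3-positive against Foxp3-negative CD4+ T cells 1 was lower, S1pr1, at an edgeR log2 difference of -2.16 ± 0.28 (SE), adjusted p = 2.09e-07. S1pr1 in CD8+ T cells was 93.7 CPM (non-treated), 55.9 and 92.2 (untransduced, days 5 and 12), 73.1 (PD1d/IL-2v), 63.7 (PD1d/IL-33) and 53.3, 22.2 and 71.2 (orthogonal, days 5, 12 and 26). As for Cxcr3, orthogonal ACT at day 12 was the lowest library, with a ratio of 1.34 (95% counting interval 1.16 to 1.51) from day 12 to day 26. Ccr7, the lymph node homing receptor, was 305 CPM (non-treated), 520.0 and 324 (untransduced, days 5 and 12), 222 (PD1d/IL-2v), 14.5 (PD1d/IL-33) and 193, 108 and 66.5 (orthogonal, days 5, 12 and 26) in the same cells, lowest after PD1d/IL-33 ACT. Between orthogonal and untransduced ACT in CD8+ T cells, 2 of the 4 receptors of this list with enough UMIs were lower past 2-fold at day 5 (Ccr7 and Ccrl2) and 3 of 4 at day 12 (Ccr7, Ccrl2 and S1pr1). Of all genes with enough UMIs, 1.38% were lower past 2-fold at day 5 and 2.51% at day 12.

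Of 11 genes of S1P handling and egress, 8 were tested between NK and CD8+ T cells, of which 2 were higher in NK cells and 3 lower. Of all genes tested, 16.1% were higher and 19.5% lower. Klf2 in CD8+ T cells was 294 CPM (non-treated), 319.8 and 229 (untransduced, days 5 and 12), 346 (PD1d/IL-2v), 141 (PD1d/IL-33) and 142, 64.7 and 311 (orthogonal, days 5, 12 and 26), and orthogonal ACT at day 12 was again lowest. Klf2 was past 2-fold in 7 of the 8 comparisons between CD8+ libraries, being lower in 6 and higher, by 2.10 (95% counting interval 1.98 to 2.23), at day 26 against day 12. Of 8 factors known to control these receptors, 7 were tested and 5 were higher in NK than in CD8+ T cells, against 16.1% of all genes tested. Among these were Tbx21, at an edgeR difference of 1.37 ± 0.15 (SE), adjusted p = 1.77e-09, and Eomes, at 1.98 ± 0.18 (SE), adjusted p = 1.99e-11. In CD8+ T cells Eomes was 109 CPM (non-treated), 21.8 and 14.7 (untransduced, days 5 and 12), 70.8 (PD1d/IL-2v), 125 (PD1d/IL-33) and 56.9, 48.7 and 115 (orthogonal, days 5, 12 and 26). It was past 2-fold in the comparison of orthogonal with untransduced ACT at both days, on the higher side. The untransduced level of day 12, 14.7 CPM, comes from only 41 cells and is near the floor of such a small sum.

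Ligands of these receptors were mainly myeloid transcripts. Of 11, 8 were tested and 7 were higher in myeloid than in CD8+ T cells, against 33.4% of all genes tested. The edgeR log2 differences were 8.64 ± 0.25 (SE), adjusted p = 2.17e-28 for Cxcl9, 5.91 ± 0.53 (SE), adjusted p = 8.49e-13 for Cxcl10, 7.35 ± 0.28 (SE), adjusted p = 1.78e-24 for Cxcl16 and 9.81 ± 0.32 (SE), adjusted p = 6.59e-27 for Ccl2. Ccl1, a CCR8 ligand, was lower, at -8.88 ± 0.68 (SE), adjusted p = 7.37e-15 in edgeR. Cxcl12 was at 0 UMIs in myeloid cells of all 8 libraries, and stromal cells, a known source of it, were not sorted. Cxcl9, a CXCR3 ligand, was 23.6 CPM (non-treated), 1111 and 579.7 (untransduced, days 5 and 12), 809 (PD1d/IL-2v), 436 (PD1d/IL-33) and 703, 385 and 685 (orthogonal, days 5, 12 and 26) in myeloid cells. Non-treated tumors stood apart as the lowest. Ccl8, the other CCR8 ligand, was 75.5 CPM (non-treated), 4.08 and 0 (untransduced, days 5 and 12), 46.7 (PD1d/IL-2v), 5.01 (PD1d/IL-33) and 303, 414 and 34.5 (orthogonal, days 5, 12 and 26) there. Orthogonal ACT at days 5 and 12, with low Ccr8 in lymphocytes, had the 2 highest Ccl8 levels, at ratios of 4.48 to untransduced ACT at day 5 and 2.90 to PD1d/IL-2v ACT. Other libraries went another way. PD1d/IL-33 ACT had the lowest Ccr8 in CD8+ T cells (8.59 CPM) with 5.01 CPM of Ccl8, and non-treated tumors the highest (100.2 CPM) with 75.5 CPM. These 2 Ccl8 levels come from only 32 and 23 myeloid cells, and the 0 after untransduced ACT at day 12 from 14. The levels of 5.01 CPM and 0 are near the floor of such small sums. A relation of Ccl8 to Ccr8 was not tested.

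The genes whose levels ran most like each receptor were found over 34 sums of at least 20 cells, among 8555 genes, by Pearson r of log2(CPM + 10). They are descriptions, since sums of 1 library share depth and tumor and the classes set most of the spread. The nearest were Grap for Cxcr3 (r = 0.943), Themis for Cxcr6 (0.935), Ep300 for Cxcr4 (0.724), Sypl for Ccr2 (0.805), Sdf4 for Ccr8 (0.947), Ap1s2 for Cx3cr1 (0.754), Gimap1 for S1pr4 (0.956) and Klrb1f for S1pr5 (0.885). The next nearest were Ltb and Trim59, Pdcd1 and Grap2, Csnk1e and Rap1gap2, Cux1, Tnfrsf4 and Sytl1, Smpdl3b and Bri3bp, Cd247 and Gimap3, and Sh2d1b1 and Gm43647, in the same order, with Cux1 alone given for Ccr2.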

How the data were processed

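The authors made the deposited counts with Cell Ranger (2.2.0 in the submitters' processing notes) on GRCm38, as UMIs per gene and barcode, not normalized, with the 8 libraries aggregated. Whether reads were subsampled to equal depth on aggregation is not given in the sources used here. The number that ends each barcode gave its library, in the row order of the deposited aggregation table. The cell limits in the study's methods were applied, which are 500 to 6000 genes, 2000 to 40000 UMIs, a ribosomal share of 5% to 60% (113 genes) and a mitochondrial share under 10% (13 genes). Gates were set on raw UMIs: at least 2 of Cd3d, Cd3e and Cd3g with Cd8a or Cd8b1 and no Cd4, or with Cd4 and no Cd8a or Cd8b1, for T cells, at least 2 of Ncr1 and Klrb1c for NK cells, and at least 10 of Lyz2, Csf1r, C1qa, C1qb and C1qc for myeloid cells. CD4+ T cells were split by 1 or more UMI of Foxp3. The 2730 ungated cells, 1284 of them CD3-positive without Cd8 or Cd4, were left out of the comparisons.

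UMIs were summed per class and library. Classes were compared with edgeR 4.0.16 (R 4.3.3, TMM, filterByExpr, called at an adjusted p under 0.05), with DESeq2 1.42.0 as an alternative, in a fit checked on simulated counts. Conditions, with 1 library each, were compared as CPM with exact 95% Poisson intervals and ratios after adding 10 CPM, in Python 3.11.15 with numpy 2.4.6, scipy 1.17.1 and pandas 2.3.3. Intervals and limits of a count of 0 (3 counts) cover counting error only. The genes named are the 8 members, fixed lists of other receptors, ligands, egress genes and factors (of which Cxcl11 was not matched), and for each member the 3 genes of the most similar pattern. Members and lists were chosen with earlier results of these data known. Some genes of the lists are not reported here.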

Additional observations from a re-analysis of the deposited data

Results flagged for a closer look

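In NK cells, the ratio of orthogonal to untransduced ACT differed in sign between the days for 2 receptors. Cxcr4 was at 1.08 on the log2 scale at day 5 and -0.44 at day 12, and Ccr2 at 0.27 and -0.36, where each day is a comparison of single libraries and the difference between days was not tested. The untransduced library of day 12 holds 60 NK cells and that of day 5 holds 504.

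Among cells that no gate took, which enter no comparison above, Cxcr4 after orthogonal ACT at day 5 exceeded non-treated tumors by 1.21 on the log2 scale, and Ccr8 after untransduced ACT at day 12 exceeded them by 1.39 (54 against 75 cells). Only levels above non-treated tumors were flagged. On the lower side, orthogonal ACT at day 5 was at -2.25 for Ccr8, -1.88 for Cxcr3 and -1.01 for Cxcr6. At day 12 of this treatment Cxcr3 was at -2.04.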

How the results depend on the processing

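The 7 receptors called between NK and CD8+ T cells were called in every fit that left out 1 library. Receptors called numbered 3 to 4 between the CD4+ classes and 6 to 8 between myeloid and CD8+ T cells over these fits. Between Foxp3-negative CD4+ and CD8+ T cells, 2 receptors were called, and 1 to 3 without single libraries, 1 under stricter gates or with the cell filter of the later experiment, 5 with no filter on low counts and 5 by the exact sign-flip test at an unadjusted p under 0.05. Past 2-fold in CD8+ T cells between orthogonal and PD1d/IL-33 ACT was 1 receptor, and 0 with the later filter or after thinning. Between days 26 and 12 of orthogonal ACT it was 1, 3 with a pseudocount of 1 CPM (Cxcr3, Ccr8 and S1pr5) and 2 with the later filter (Cxcr3 and Cxcr4). The median share of CD8+ T cells with a UMI, over receptors and libraries, was 12.8% thinned and 31.5% unthinned. TMM moved the share of higher genes among all those past 2-fold by over 10 points in 5 of 8 CD8+ comparisons, and the median of all genes by at most 0.103, and moved no count of receptors by over 1.5 times. No value of a receptor that had been called changed sign. Using untransduced ACT of day 5 in place of day 12, and leaving out cells high in S100a8 and S100a9, were chosen after seeing the data. No paired analysis was possible because each condition and day has a single library; classes were paired within libraries.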

Other observations

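The ungated cells also had low Cxcr3 in the day 5 and day 12 libraries of orthogonal ACT. Cxcr3 was 123.9 CPM in non-treated tumors, 95.1 and 118.4 after untransduced ACT at days 5 and 12, 126.1 after PD1d/IL-2v ACT, 72.6 after PD1d/IL-33 ACT, and 26.4, 22.6 and 143.6 after orthogonal ACT at days 5, 12 and 26. The 2 lowest values were again those of orthogonal ACT at days 5 and 12. Of the 2730 ungated cells of all libraries together, 1284 were CD3-positive without Cd8 or Cd4, and 245 were CD3-positive with both. Their make-up in single libraries was not examined.

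Ccl2, the CCR2 ligand, was 2365 CPM (non-treated), 588 and 9585 (untransduced, days 5 and 12), 513 (PD1d/IL-2v), 501 (PD1d/IL-33) and 1033, 699 and 779 (orthogonal, days 5, 12 and 26) in myeloid cells. The 2 highest levels came from the 2 smallest libraries, with 14 and 23 myeloid cells. Cxcl10, the other CXCR3 ligand measured, was 1274 CPM (non-treated), 3767 and 982 (untransduced, days 5 and 12), 989 (PD1d/IL-2v), 602 (PD1d/IL-33) and 2658, 1040.5 and 1394 (orthogonal, days 5, 12 and 26), with the 2 highest levels in the day 5 libraries after ACT.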
